A study of Mus musculus with 6 samples.

Results

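The genes described here are 10 chaperones and related proteins of the endoplasmic reticulum (ER): Hspa5, Hsp90b1, Hyou1, Calr, Canx, Pdia3, Pdia4, Pdia6, Herpud1 and Sdf2l1. They were chosen by name, as every probe set whose only annotated gene symbol was 1 of these 10. That gave 23 of the 45101 probe sets on the array, for 10 of the 18193 genes with a probe set of their own. The brightest probe set stands for each gene, and the others serve as a check. The signals come from 1-colour Affymetrix arrays, 6 in all, of mouse embryo fibroblasts (MEF), the connective tissue cells of a culture from embryonic tissue. The embryos were of the ICR strain, which is outbred, and were taken on embryonic day 15.5. The HS+LPS group was heated to 42 °C for 1 h and then given E. coli lipopolysaccharide (LPS) at 1 μg/ml for 4 h. The LPS group had the same LPS without heat, and the Control group stayed at 37 °C with no agent. Each group has 2 arrays, with titles that begin MEF1 and MEF2. The number was taken as that of the culture, so that it pairs arrays across groups. How many embryos went into a culture is not stated in the labels. Cells that were heated without LPS were not analysed here.

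The ER is where secreted and membrane proteins fold, and fibroblasts secrete much collagen through it. Hspa5 (BiP) binds unfolded chains with its ATPase cycle, Hsp90b1 (Grp94) is the Hsp90 of the compartment, calnexin and calreticulin hold glycoproteins by their sugars, and protein disulfide isomerases form and rearrange disulfide bonds. When unfolded protein builds up, the sensors Ire1, Perk and Atf6 switch on the unfolded protein response (UPR), which raises these genes through ER stress elements in their promoters. Heat shock proteins of the cytosol are raised by another route, heat shock factor 1 acting on heat shock elements.

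ER stress elements were looked for in the promoter windows of these genes, and 6 of the 9 windows searched held a match. The windows, from RefSeq on build GRCm38.p6, run from 250 bases before the annotated transcription start to 50 bases after it, and 9 of the 10 genes had an entry; the tenth gene is Hyou1. The ER stress element (ERSE), searched as CCAAT, 9 bases of any kind and CCACG on either strand, was found in 5 of the 9 windows, those of Hspa5, Hsp90b1, Calr, Canx and Pdia6, and in 0.119% of all 32851 windows. The related element ERSE-II, searched as ATTGG, 1 base of any kind and CCACG on either strand, was found in the window of Herpud1 and in 0.0365% of all windows. These 7 stretches are shown because they hold the matches, with the fixed bases of each element in capitals; where the element lies on the opposite strand, the capitals read CGTGG and ATTGG.
Hspa5, chr2:34771995-34772073, + strand: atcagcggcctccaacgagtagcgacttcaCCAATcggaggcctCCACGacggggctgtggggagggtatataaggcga
Hsp90b1, far match, chr10:86705608-86705686, - strand: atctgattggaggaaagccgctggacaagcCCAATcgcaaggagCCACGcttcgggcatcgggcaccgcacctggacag
Hsp90b1, near match, chr10:86705503-86705581, - strand: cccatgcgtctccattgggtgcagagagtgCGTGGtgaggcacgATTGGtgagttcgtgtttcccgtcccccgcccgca
Calr, chr8:84847045-84847123, - strand: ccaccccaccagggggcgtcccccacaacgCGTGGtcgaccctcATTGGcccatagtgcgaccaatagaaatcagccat
Canx, chr11:50325770-50325848, - strand: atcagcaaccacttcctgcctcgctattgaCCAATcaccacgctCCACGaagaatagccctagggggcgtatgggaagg
Pdia6, chr12:17266461-17266539, + strand: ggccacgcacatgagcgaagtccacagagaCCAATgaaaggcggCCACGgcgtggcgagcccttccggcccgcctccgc
Herpud1, chr8:94386347-94386417, + strand: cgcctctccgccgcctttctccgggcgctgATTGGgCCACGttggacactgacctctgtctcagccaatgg
Counted from the transcription start, with bases before it negative, the match of Hspa5 begins at -65, that of Pdia6 at -98, that of Canx at -145 and that of Calr at -162. Hsp90b1 had matches that begin at -212 and -107, the nearer on the opposite strand. The match of Herpud1 begins at -52. No window of the 9 genes held the heat shock element, searched as GAA, TTC and GAA with 2 bases of any kind between neighbours, on either strand (0 of 9, and 0.603% of all windows) or the UPR element TGACGTGG (0 of 9, and 0.676%). A list of cytosolic and mitochondrial heat shock proteins, co-chaperones and related factors had 19 genes with a window. Of these, 4 held the heat shock element and 0 the ERSE. A match is a description of these letters. The ER stress elements were already known from promoters of such genes, so the shares are no test. The windows of Pdia3, Pdia4 and Sdf2l1 held none of the 4 motifs.

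**Figure D1:**
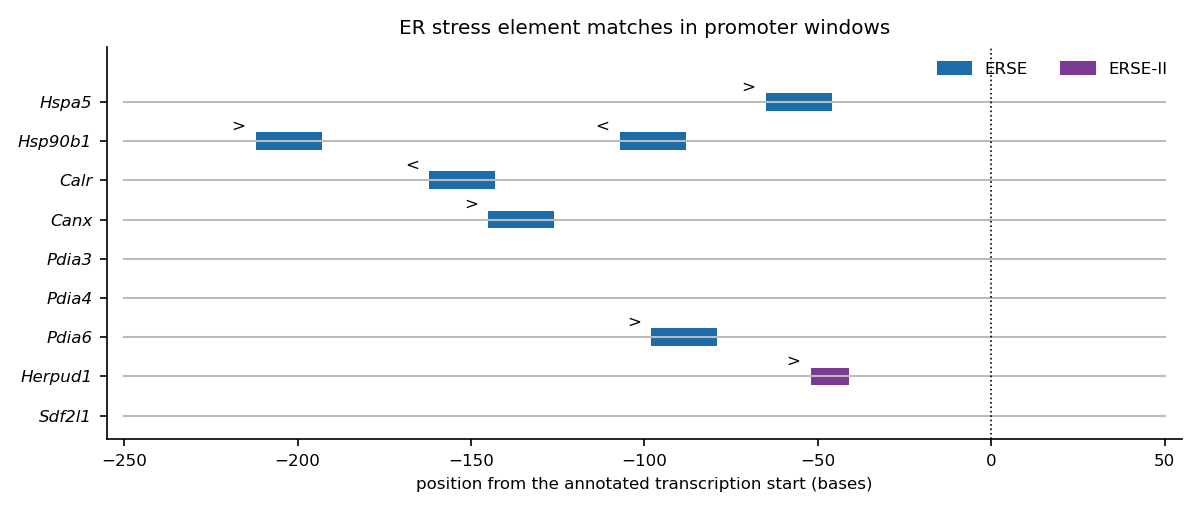
Position of ER stress element matches in the promoter windows of 9 genes, in bases from the annotated transcription start (dotted line); bars are matches (blue ERSE, purple ERSE-II), > marks the strand of the gene and < the opposite strand. The matches lie between positions -212 and -42.

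All 10 genes were above the filter on dim probe sets, and 22 of their 23 probe sets. Signals are in scaled intensity units; the deposited arrays share a trimmed mean of 100, and the brightest of 27 probe sets for bacterial genes, taken as the noise level, read 6.0 to 7.67. Scaling of this kind hides any change in total mRNA per cell. The highest signals on an array were 6931 to 8434, and whether values as bright as those of Hspa5 still rise in proportion was not tested. Of 9 fibroblast markers, 9 were above noise on all 6 arrays. Among 7 lists of markers of other cells, most signals were dim, and the summed signal of 3 lists moved with the group. For adipogenic, chondrogenic and osteogenic markers (3 of 5 above noise on all arrays) it was 400.1 to 501 in HS+LPS, 240.0 to 279 in LPS and 268 in both Control arrays. For skeletal muscle (2 of 5, with Myh3 at or under noise) it was 363 to 438 in HS+LPS, 247 to 296 in LPS and 292 to 340.0 in Control. For epithelial cells (2 of 5, with Cdh1 at or under noise) it was 88.2 to 133 in HS+LPS, 41.3 to 93.9 in LPS and 42.0 to 52.8 in Control, where HS+LPS and LPS overlapped. Their part in the results was not tested. In such bulk cultures fewer cells of a type and less RNA per cell cannot be told apart. Differences are log2 of the first group over the second, on the log2(intensity + 3.37) scale, which understates changes of dim genes. P-values are from limma, Benjamini-Hochberg adjusted over 12917 tested genes, with 0.05 as the threshold. The fit without the culture and the fit with the culture as a block are both given, since the number in the titles is read as pairing the arrays.

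HS+LPS against LPS asks what differed when heat came before LPS. Without a group heated without LPS, an effect of heat alone and a change of the LPS response cannot be told apart. As deposited, 8 of the 10 genes were higher after heat, with a median log2 difference of 0.15. Over all 12917 genes tested the median was -0.05, and 5730 were higher. After quantile normalization 6 of the 10 were higher and 4 lower, with a median of 0.033. Without the block 0 of 10 rose (background 0.511% of all genes) and 0 fell (0.828%). At an unadjusted p under 0.05 there were 2 of the 10, both higher, where 16.8% of all genes passed in either direction. With the culture as a block Hspa5, Hyou1 and Pdia3 rose, 3 of 10 (background 6.32%), and 0 fell (12.6%). With the block and quantile normalization 1 rose, Hyou1. The HS+LPS arrays lay wholly above the LPS arrays for 5 genes (17.9% of all genes) and wholly below for 1, Herpud1 (28.8%). Bright genes as a class were shifted: over the 908 tested genes with a mean signal of at least 1000, which include 6 of the 10, the median difference was 0.13, and -0.01 after quantile normalization.

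HS+LPS against Control compares the combined treatment with untouched cells, and shares arrays with both other comparisons. The median of the 10 genes was 0.09, against -0.09 over all genes. Over the 908 genes with a mean signal of at least 1000, which include 6 of the 10, it was 0.06. After quantile normalization the median of the 10 genes was 0.02, with 5 higher and 5 lower. Without the block 0 of 10 rose (background 0.17%) and 0 fell (0.00774%), and 1 of 10 had an unadjusted p under 0.05 (16.2% of all genes). With the block Hspa5 rose, 1 of 10 (5.09%), and 0 fell (12.1%). After quantile normalization Hspa5 was 0.18 higher and no longer passed with the block (limma adjusted p = 0.0703), leaving 0 of 10. Arrays did not overlap for 4 genes that were higher (14.3%) and for Herpud1, which was lower (31.1%).

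LPS against Control asks what LPS alone did to these genes. No difference passed the test in either fit: 0 of 10 rose without the block (0.147%) and 0 fell (background 0%), and with the block 0 rose (2.06%) and 0 fell (0.72%). At an unadjusted p under 0.05 there were 0 of the 10, where 4.87% of all genes passed. The median difference was -0.05, and -0.05 over all genes. Of the 10 genes 8 were lower, as were 7645 of all 12917 genes. After quantile normalization 6 of the 10 were lower. Arrays did not overlap for Canx, which was higher (13.1%), and for Hyou1, Pdia3, Pdia4 and Sdf2l1, which were lower (18.3%).

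**Figure D2:**
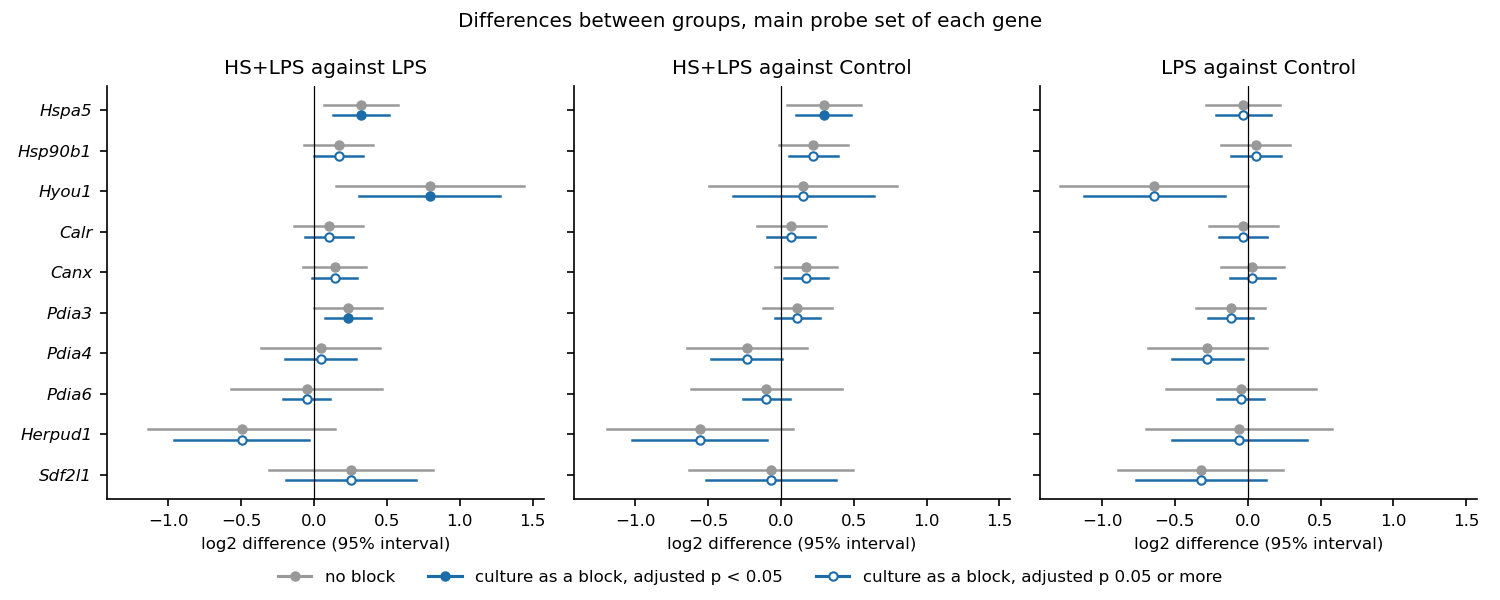
Log2 differences of the 10 genes in the 3 comparisons with 95% confidence intervals; grey is the fit without the culture, blue the fit with the culture as a block, with its circles filled where the adjusted p was under 0.05. Hspa5, Hyou1 and Pdia3 are filled in HS+LPS against LPS, Hspa5 in HS+LPS against Control, and 0 genes in LPS against Control.

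Hspa5, the Hsp70 of the ER and a common readout of ER stress, read in its brightest probe set, 1416064_a_at, 4588 and 4214 in HS+LPS, against 3530.4 and 3501 in LPS and 3375 and 3819 in Control. Both HS+LPS arrays were the brightest of the 6, and the Control pair spread around the LPS pair. The log2 difference from LPS was 0.32 (1.25-fold, SE 0.10, limma adjusted p = 0.206, and 0.0288 with the block, where the 95% interval was 0.13 to 0.51), with 0.38 in culture 1 and 0.27 in culture 2. From Control it was 0.29 (limma adjusted p = 0.248, with the block 0.0442). After quantile normalization the difference from LPS was 0.15 and did not pass with the block (limma adjusted p = 0.115). A second probe set, 1427464_s_at, read 2697 and 3017 in HS+LPS, against 2328 and 2301 in LPS and 1933 and 2072 in Control. Its groups did not overlap, and HS+LPS was above LPS by 0.30 and above Control by 0.51 (limma adjusted p over all probe sets with the block, 0.0301 and 0.00356). The dimmest, 1447824_x_at, read 179 and 263 in HS+LPS, 158 and 224 in LPS and 204 and 241 in Control, and its groups overlapped.

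Hyou1 (Grp170) is the nucleotide exchange factor of Hspa5 and a chaperone itself. It read 158 and 149 in HS+LPS, against 66.8 and 113 in LPS and 151 and 126 in Control. The low values were the LPS arrays, that of culture 1 most of all, while HS+LPS and Control overlapped. The difference between HS+LPS and LPS was 0.79 (SE 0.26, limma adjusted p = 0.218, with the block 0.0331), from 1.2 in culture 1 and 0.39 in culture 2. Without the LPS array of culture 1 it was 0.43. The difference between LPS and Control was -0.64 and did not pass (limma adjusted p = 0.999, with the block 0.186). The other probe sets of Hyou1 did not share this pattern. In probe set 1423290_at the signals were 90.6 and 72.3 in HS+LPS, 87.5 and 53.3 in LPS and 52.1 and 48.0 in Control, so that LPS was higher than Control there by 0.43, and in 1451913_a_at LPS was higher by 0.40. The probe sets of Hyou1 thus disagree on its direction under LPS.

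Hsp90b1 (Grp94), which folds integrins and Toll-like receptors, read 2672 and 2639 in HS+LPS, against 2302 and 2427 in LPS and 2378 and 2176 in Control. The HS+LPS pair was above the other 4 arrays. The difference was 0.17 from LPS (95% interval with the block -0.0026 to 0.34, limma adjusted p = 0.153) and 0.22 from Control (with the block 0.0761), and passed in neither. Its second probe set gave 0.15 for both.

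The lectin chaperones were nearly flat. Canx (calnexin), the membrane-bound one, read 2975 and 2877 in HS+LPS, against 2696 and 2613 in LPS and 2582 and 2612 in Control. All 3 groups were separate, but by little: 0.14 above LPS and 0.17 above Control, neither past the threshold (limma adjusted p with the block 0.18 and 0.118). Calr (calreticulin), the soluble one and a calcium store, read 3580.4 and 3240.4 in HS+LPS, 3270.4 and 3085 in LPS and 3215 and 3274 in Control. In this probe set the groups of Calr overlapped, and the interval of its difference from LPS with the block was -0.06 to 0.26. In probe set 1456170_x_at HS+LPS (3560 and 3258) lay above LPS (3003 and 2993) and Control (3082 and 3131). In 1433806_x_at HS+LPS (2998 and 3018) also lay above LPS (2908 and 2626) and Control (2898 and 2566). Their differences from LPS, 0.18 and 0.12, did not pass with the block (limma adjusted p over all probe sets 0.134 and 0.327). After quantile normalization the difference from LPS was -0.04 for Canx and -0.09 for Calr, the opposite sign.

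Pdia3 (ERp57), the disulfide isomerase that works with both lectins, read 4201 and 3889 in HS+LPS, against 3597 and 3294.2 in LPS and 3754 and 3718 in Control. The order was HS+LPS, Control and LPS, with no overlap between neighbours. The difference from LPS was 0.23, with 0.22 in culture 1 and 0.24 in culture 2 (limma adjusted p = 0.306, with the block 0.0476). After quantile normalization it was 0.06 and did not pass with the block (limma adjusted p = 0.424), nor did it pass with the block and median centring (limma adjusted p = 0.0634). The difference from Control was 0.11 and did not pass in either fit. A second probe set of Pdia3, 1445330_at, was dim, at 60.8 and 39.7 in HS+LPS, 41.1 and 40.8 in LPS and 41.7 and 38.5 in Control. Its groups overlapped.

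Pdia4 (ERp72) read 199 and 256 in HS+LPS, against 216 and 223 in LPS and 249.9 and 284 in Control. Its Control arrays were above both LPS arrays, and HS+LPS spanned the LPS pair. The difference between LPS and Control, -0.28, did not pass with the block (limma adjusted p = 0.257). Pdia6 (P5), an isomerase that binds Hspa5, read 885 and 1158 in HS+LPS, 916 and 1204 in LPS and 963 and 1223 in Control. It differed between the cultures and hardly between the groups: culture 2 averaged 1195 and culture 1 averaged 921 over the 3 groups, a log2 difference of 0.37. Its cultures did not overlap, which held for no other of the 10 and for 24.7% of all genes. Within a culture Pdia6 stayed within 0.12 of its Control value, and with the block its interval between HS+LPS and LPS was -0.21 to 0.11.

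Sdf2l1, which works with Hsp40 proteins of the ER lumen, read 91.3 and 62.4 in HS+LPS, against 64.9 and 60.8 in LPS and 72.5 and 87.2 in Control. The HS+LPS pair spanned the Control pair and overlapped the LPS pair, and none of its differences passed. It has 1 probe set, so no check by another was possible.

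Herpud1 stands at the disposal end of the pathway: it is a membrane protein that assembles the ubiquitin ligase for ER-associated degradation. It read 303 and 217 in HS+LPS, against 314 and 421 in LPS and 317 and 452 in Control. Both HS+LPS arrays were below the other 4, but culture 1 was almost flat. The difference between HS+LPS and LPS was -0.05 in culture 1 and -0.95 in culture 2, with a mean of -0.50 (SE 0.26, limma adjusted p = 0.41, with the block 0.123). With the block and median centring it passed (limma adjusted p = 0.0425). The second probe set, 1435626_a_at, read 254 and 127 in HS+LPS, 314 and 350 in LPS and 324 and 365 in Control. There the mean difference was -0.87 (limma adjusted p over all probe sets 0.305, with the block 0.0406). Whether the cultures differ in this cannot be tested with 1 array per culture and group.

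**Figure D3:**
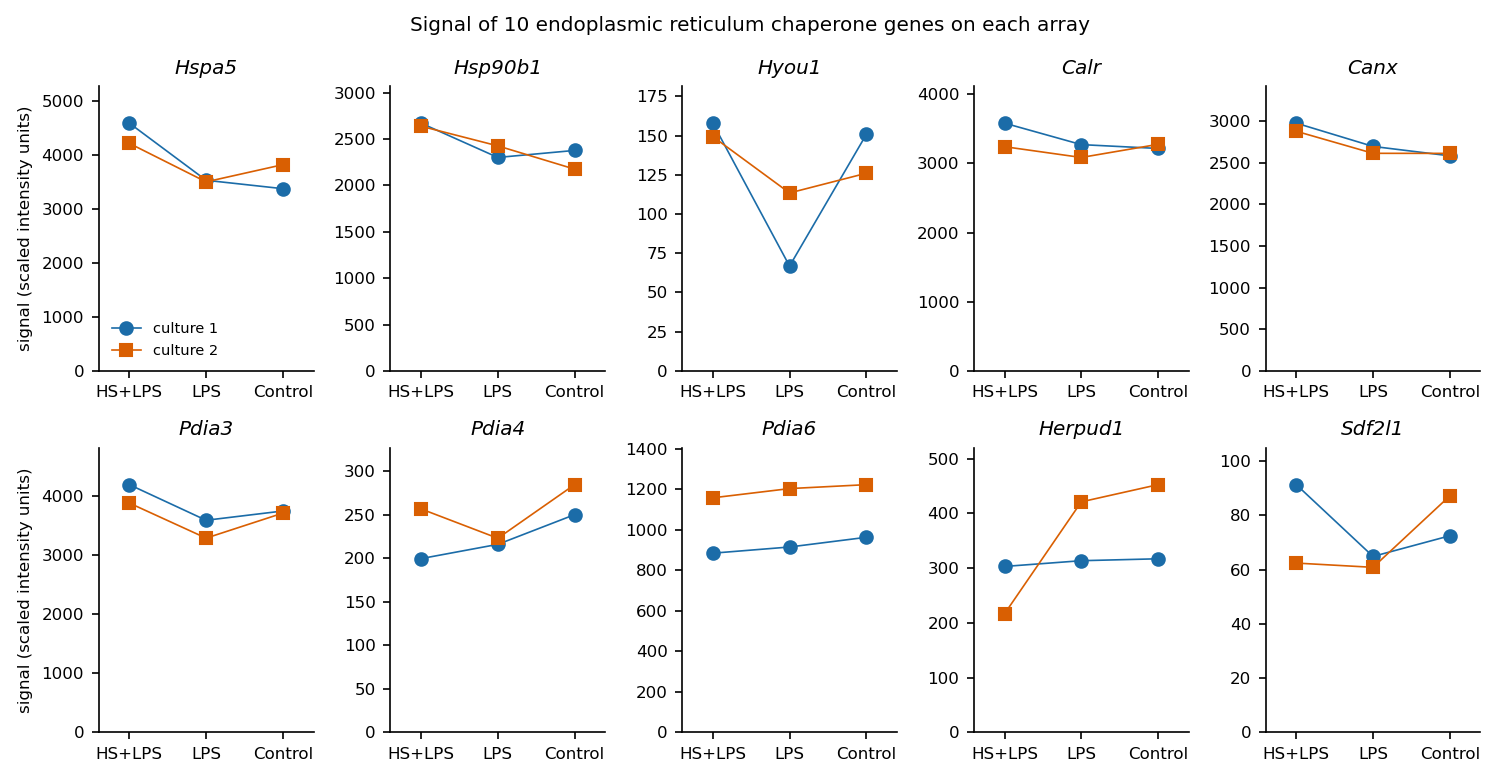
Signal of each gene on each array in scaled intensity units, axes from 0, with culture 1 as blue circles and culture 2 as orange squares and lines joining arrays of a culture. Hspa5 is highest in HS+LPS in both cultures, Hyou1 is lowest in LPS, Pdia6 differs by culture, and Herpud1 is lowest in HS+LPS with the large step in culture 2.

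**Figure D4:**
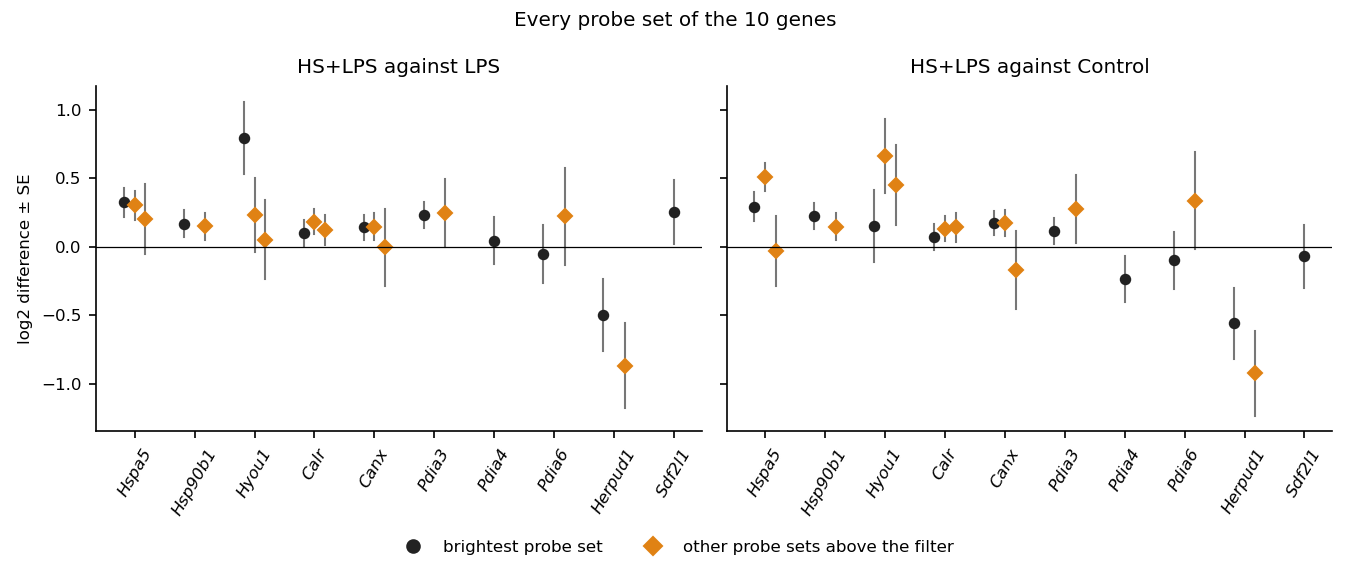
Log2 difference ± SE (fit without the block) of each of the 22 probe sets above the filter, with black circles for the brightest of a gene and orange diamonds for the others, in HS+LPS against LPS and against Control. Among genes with more than 1 such probe set, Hspa5, Hsp90b1, Hyou1, Calr, Pdia3 and Herpud1 have the same sign throughout in HS+LPS against LPS. Canx and Pdia6 do not, and the Hyou1 probe sets spread from 0.05 to 0.79.

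The arrays ordered Hspa5 much like a few other genes. Over the 6 arrays, which share 2 cultures and 1 scaling, Pearson correlations of log2 signal with Hspa5 were highest for Esr1 (0.999), the oestrogen receptor, Plod2 (0.998), a lysyl hydroxylase of collagen in the ER, Hspe1 (0.990), the mitochondrial co-chaperonin, Piwil2 (0.985) and Nras (0.979). Of 12355 tested genes that varied enough to be ranked, 105 exceeded 0.9. Plod2 read 933 and 873 in HS+LPS, against 751 and 754 in LPS and 737 and 807 in Control, and Piwil2 was at or near noise, at 5.28 to 13.7. Esr1 was dim too, at 65.3 and 35.4 in HS+LPS, 11.2 and 10.8 in LPS and 7.31 and 20.6 in Control. Its value of 7.31, in culture 1, was under the noise level of that array, 7.52. Of the other 9 chaperones Canx was nearest to Hspa5 (0.92) and Herpud1 the most opposed (-0.44). With 6 arrays these are descriptions.

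The rest of the ER folding machinery moved little. Of 34 tested folding enzymes and co-chaperones, limma called 0 without the block in HS+LPS against LPS. By unadjusted p under 0.05 there were 5, where 16.8% of all genes passed in either direction. With the block 4 rose and 2 fell, around a median of 0.07 (-0.02 after quantile normalization). With the block 6.32% of all genes rose and 12.6% fell, the background for each list described here. Dnajb9 (ERdj4), an Hsp40 of the ER and an Ire1 target, read 946 and 956 in HS+LPS, against 687 and 656 in LPS and 698 and 655 in Control. Both HS+LPS arrays were above the other 4 (log2 difference 0.50, limma adjusted p with the block 0.00299, and 0.00468 after quantile normalization). Serpinh1 (Hsp47), the collagen chaperone and a known heat shock factor target, rose by 0.41 with the block (limma adjusted p = 0.00613), and by 0.23 after quantile normalization (limma adjusted p = 0.025). Ero1a, which oxidizes disulfide isomerases, was higher in LPS than in Control by 0.64 and lower in HS+LPS than in LPS by 0.84, both past the threshold with the block (limma adjusted p = 0.0111 and 0.000872). P4hb, the most studied disulfide isomerase, differed by 0.11 and did not pass.

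The sensors and transcription factors of the response had more calls downward than upward. Of 16 tested UPR sensors and factors, 0 were called by limma without the block in HS+LPS against LPS. An unadjusted p below the same threshold was seen for 5 (16.8% of all genes). With the block 1 rose and 5 fell, against a background of 6.32% rising and 12.6% falling. In all 13 of 16 were lower (median -0.14), and 11 after quantile normalization, where 7187 of all 12917 genes were lower as deposited. Ddit3 (CHOP), the pro-death factor downstream of Perk, read 301 and 203 in HS+LPS, against 475 and 453 in LPS and 542 and 708 in Control. The groups were separate in that order (HS+LPS against LPS, log2 difference -0.90, limma adjusted p with the block 0.0103; against Control, -1.31 and 0.00242). Atf4, the factor upstream of Ddit3, read 676 and 762 in HS+LPS, against 814 and 1035 in LPS (log2 difference -0.35, with the block limma adjusted p = 0.0423). Xbp1 read 1480.3 and 1686 in HS+LPS, 1471 and 1749 in LPS and 1445 and 1694 in Control, so culture 2 was above culture 1 in every group; these values give total Xbp1 and not its splicing.

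Calls among the listed targets of the Perk branch were upward, but that list leaves out Atf4 and Ddit3, which fell with the block. Of 15 tested, 3 rose without the block in HS+LPS against LPS, Atf3, Chac1 and Ppp1r15a (background 0.511%), and 5 with it (6.32%). In either fit 0 fell (background 0.828% without the block, 12.6% with it). With the block 10 of the 15 did not pass. By sign alone 10 of the 15 were higher and 5 lower. Ppp1r15a (GADD34), which reverses the Perk block of translation, read 403 and 407 in HS+LPS, against 199 and 163 in LPS and 167 and 159 in Control (limma adjusted p = 0.0306 against LPS).

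For ER-associated degradation, limma called 0 of 23 tested genes without the block (5 by unadjusted p, against 16.8% of all genes). The block gave 4 higher (background 6.32%) and 3 lower calls (median 0.02), the lower ones near the background of 12.6%. Those that fell were Syvn1 (Hrd1), the ligase of the pathway (-0.63), Sel1l, its partner (-0.43), and Edem3, which trims sugars of misfolded glycoproteins (-0.57). Ube2g2, a ubiquitin-conjugating enzyme of the pathway, rose by 0.65 with the block. Of 25 translocon and glycosylation genes 23 were higher (median 0.15), and 4 rose (background 6.32%) and 1 fell (12.6%) with the block; after quantile normalization the median was 0.09 and 1 rose and 2 fell. Of 16 KDEL receptor and COPII genes 0 rose and 2 fell with the block, near the background of 12.6%, and of 9 ER calcium genes 1 rose (6.32%). Without the block limma called 0 genes in these last 3 lists, and 4 had an unadjusted p below the threshold (16.8% of all genes).

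Against this stands a list of heat shock proteins of the cytosol and mitochondria, co-chaperones and the factor Hsf2. Of its 22 tested genes 9 rose without the block (background 0.511%) and 19 with it (6.32%), with a median of 1.06. Hspa1a, the inducible Hsp70 of the cytosol, whose probes may also take up the near-identical Hspa1b, read 5029 and 4940 in HS+LPS, against 56.8 and 68.1 in LPS and 61.0 and 54.8 in Control (log2 difference 6.25). The constitutive Hsp70 of the cytosol, Hspa8, differed by 0.48 from LPS and rose with the block (limma adjusted p = 0.00246). LPS against Control gave 0 limma calls in the lists without the block, and 5 genes had an unadjusted p below the threshold (4.87% of all genes). With the block it gave Ero1a, Creb3l1, Cebpb and Stim2, all higher, where 2.06% of all genes rose and 0.72% fell. These were 1 of 34 folding genes, 1 of 16 sensors and factors, 1 of 15 Perk targets and 1 of 9 calcium genes. In the lists of degradation, translocon, transport and heat shock genes 0 of 23, 25, 16 and 22 passed.

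**Figure D5:**
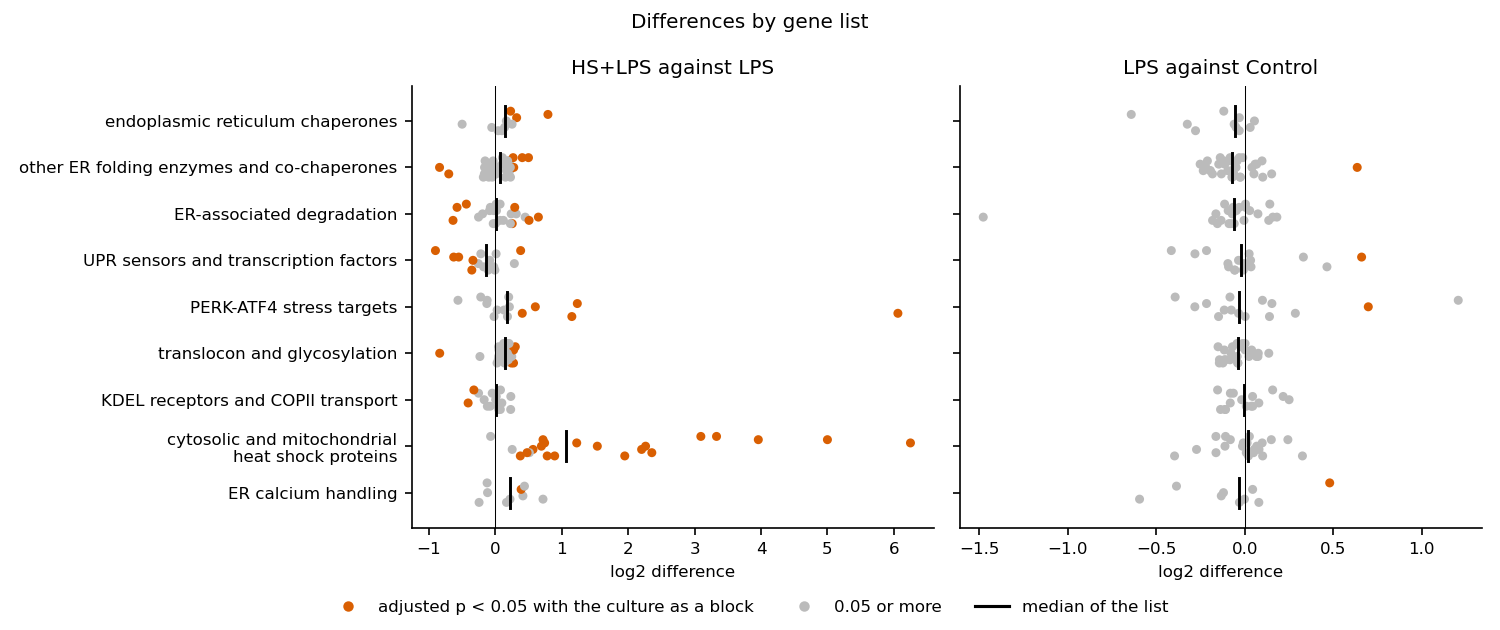
Log2 differences of every tested gene in 9 lists (points, orange where the adjusted p with the culture as a block was under 0.05) with the median of each list as a black bar, for HS+LPS against LPS and LPS against Control. The ER lists centre near 0, between -0.14 and 0.22, and the heat shock protein list at 1.06.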

How the data were processed

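The deposited values are intensities on a linear scale for every probe set, which the authors had scaled, as the values show by equal trimmed means (2% cut at each end); the software was not given in the sources used here. Arrays and biotin labelling of cRNA are per the labels. Control probe sets were left out, log2(intensity + 3.37) was taken (3.37 is the 25th percentile), a dimness filter at percentile 40 of the mean log2 signal kept 27022 probe sets, and the brightest probe set with 1 symbol stood for each gene. The test was limma's moderated one (limma version 3.58.1, R version 4.3.3, intensity trend, 3 groups in 1 fit). On simulated data only the size of planted changes was checked, and not the p-values. The protocols name no block, and the numbers in the titles, MEF1 and MEF2, were taken as culture numbers that pair the arrays. Deviations from group means correlated at 0.54 to 0.62 between same-numbered arrays. With 2 arrays per group 3 residual degrees of freedom remain, 2 with the block, and p-values rest on 2 cultures.

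The members and lists were chosen with earlier results of these data known. Named from each list were at most 3 genes that rose and 3 that fell, by size among those past the threshold without, then with, the block, and Xbp1, Atf4, Ddit3, Dnajb9, P4hb, Serpinh1, Hspa1a and Hspa8 in any case; the text gives part of these. Genes like Hspa5 were the 5 with the highest correlation among those with an SD of at least that of Hspa5 divided by 2. Alternatives were the block, pseudocounts of 1 and 16, no filter, median centring, quantile normalization, other probe set rules, no trend, 2 groups per fit and leaving out each array; combinations with the block were added after seeing the data. Motifs were searched with Python 3.11.15, and promoter sequences are from RefSeq.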

Additional observations from a re-analysis of the deposited data

How the results depend on the processing

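With the culture as a replicate block, members called were 3 (HS+LPS against LPS: Hspa5 0.32, Hyou1 0.79, Pdia3 0.23), 1 (HS+LPS against Control: Hspa5 0.29) and 0 (LPS against Control), and all genes called 2443, 2219 and 359, against 173, 23 and 19 without it. Block with quantile normalization, added after seeing the data, left 1 (Hyou1, 0.89), 0 and 0 members, with 2117, 1814 and 352 genes; block with median centring gave 3 (Hspa5 0.32, Hyou1 0.79, Herpud1 -0.50), 2 (Hspa5 0.29, Herpud1 -0.56) and 0, with 2410, 2282 and 488 genes. No other setting called a member without the block. All genes called for HS+LPS against Control were 58 at a pseudocount of 16 and 59 with median centring. Without the intensity trend the 3 comparisons gave 84, 13 and 5 genes, and with 2 groups per fit 76, 14 and 0. Leaving out each array gave 8 to 76, 8 to 14 and 0 to 4.

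Signs turned as follows, for differences that did not pass except Hspa5 in HS+LPS against Control, which had passed with the block and was lower in 1 other probe set. Quantile normalization, with or without the block, gave Calr -0.0896 and Canx -0.0364 against LPS; Calr -0.0595, Pdia3 -0.0074 and Sdf2l1 0.0567 for HS+LPS against Control; and Hspa5 0.0337 and Calr 0.0301 for LPS against Control. The mean of probe sets gave Pdia6 0.0841, 0.12 and 0.0338 in the 3 comparisons, and Hyou1 0.0621 and Canx -0.0349 for LPS against Control. Using probe sets not of the s or x type gave Hyou1 0.43 there. Other probe sets, with or without the block, gave for LPS against Control Hspa5 0.21, Hsp90b1 -0.0025, Hyou1 0.43 and 0.40, Calr 0.0192, Canx -0.16, Pdia3 0.0292 and Pdia6 0.12; for HS+LPS against Control Hspa5 -0.0337, Canx -0.17 and Pdia6 0.34; and for HS+LPS against LPS Canx -0.0043 and Pdia6 0.22. With the block other probe sets passed for Hspa5 (0.30 against LPS, 0.51 against Control), Hyou1 (0.66 against Control) and Herpud1 (-0.87 and -0.92). The cause was not tested.

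Leaving out each array moved HS+LPS against LPS between -0.25 and 0.14 for Pdia6, -0.0089 and 0.52 for Sdf2l1 and -0.13 and 0.22 for Pdia4. HS+LPS against Control moved between -0.0018 and 0.14 for Calr, -0.29 and 0.0934 for Pdia6 and -0.33 and 0.19 for Sdf2l1. LPS against Control moved between -0.25 and 0.15 for Pdia6, -0.31 and 0.19 for Herpud1, -0.0729 and 0.0115 for Calr, -0.12 and 0.0590 for Hspa5 and -0.0086 and 0.12 for Hsp90b1. The second probe set of Pdia4, under the filter, was not tested. A fit with the lone array of a group takes it to vary like the others.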
